A study of Rattus norvegicus with 52 samples.

Results

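p27, the protein made from Cdkn1b, was removed from the whole rat, and the transcriptomes of sorted mammary cells from prepubertal females labelled 4 weeks were compared with those of wild-type rats. The 11 libraries of that age, out of 52 samples in the series, were taken by their label: 3 Cdkn1b+/+ (WT) and 2 Cdkn1b-/- (KO) libraries of basal/myoepithelial cells, and 3 WT and 3 KO libraries of luminal cells. The rats were of the ACI background, a strain prone to estrogen-induced mammary tumors, and were untreated. By the paper, the mutations were made in Sprague-Dawley zygotes and backcrossed to ACI, and sorted glands came from early and late backcross generations. The titles do not give the generation of a library. The KO allele is a germline CRISPR-Cas9 deletion (DEL-32 or DEL-65) in exon 2, the first coding exon, so that every cell of the host, pituitary and ovary included, carries it. The allele of each library is not given in the labels. Cells were sorted as Cd24+Cd29 high (basal) or Cd24+Cd29 low (luminal). By the titles, the libraries came from 6 animals, 5 of which gave both a basal and a luminal library. WT animals 1, 2 and 3 carry the same number in both cell types. KO basal 1 and KO luminal 2 came from 1 animal, KO basal 2 and KO luminal 3 from another, and KO luminal 1 from an animal without a basal library. The title of WT animal 1 carries 3.4 where those of the other animals carry 4.

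p27 binds complexes of cyclins with cyclin-dependent kinases and holds cells in G1. When it is degraded, the kinases phosphorylate the retinoblastoma family, E2F factors switch on the genes of DNA synthesis, and the genes of G2 and mitosis follow. Before puberty the mammary gland is a small ductal tree. Its inner luminal layer later makes milk and its outer basal layer contracts to move it.

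The question here was what loss of p27 does to the transcriptome before puberty. In short, no gene passed edgeR's test in either cell type. Of 49 G2/M genes, 37 were at somewhat higher levels in KO basal and 39 in KO luminal cells, beside 51.6% and 42.3% of all genes. Ccnb1, Ccnb2, Cenpa and Cdca3 lay above WT without overlap in both, as did 0.356% of all genes, though Cenpa and Cdca3 only just in basal cells. Mki67, Top2a and Ccna2 overlapped. Ribosomal protein genes and genes of oxidative phosphorylation were higher for nearly all members, which in basal cells rested on 1 library. The number of genes called depended on a single KO animal.

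Gene counts came to 14674040 to 23045345 reads in a library, and 12082 of 17356 genes passed the filter on low counts. Values of single genes below are normalised CPM, that is, counts scaled to library size with a correction for composition. Sums over gene lists in the 4-week libraries are CPM without that correction, so the 2 scales differ. The correction factors ran from 0.78 (KO basal 1) to 1.13 (WT luminal 2). A log2 fold change is always KO over WT. The sort held: 13 basal markers (Krt5, Krt14, Acta2 and others) summed to 19491 to 23859 CPM in basal libraries and 173 to 251 CPM in luminal libraries. The luminal markers (Krt8, Krt18, Epcam and others) summed to 21821 to 37443 CPM in luminal libraries and 3307 to 5143 CPM in basal libraries. Fibroblast markers summed to 1296 to 6520 CPM in WT basal and 2733 to 8159 CPM in KO basal libraries, Schwann cell markers to 872 to 2492 and 1618 to 2669 CPM. Myeloid markers reached 5 to 10 CPM in WT basal and 19 to 24 CPM in KO basal libraries, which did not overlap. The 5 erythroid markers in the table summed to 0 CPM after rounding in all 11 libraries, although 4 of them had reads in some basal and 4 in some luminal library.

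Some libraries stood apart from their group. After the mean of each cell type was taken out, the first principal component held 43.3% of the variance, and KO basal 1 (a score of 92.22) and KO luminal 1 (64.81) lay farthest out on it. KO luminal 2 (34.89) and both libraries of WT animal 1 (19.3 and 19.49) followed on the same side. The remaining 2 WT animals and the KO animal of KO basal 2 and KO luminal 3 lay on the other side, between -29.11 and -50.84. Thus the component ran between animals and did not split the genotypes. For 7 of 11 libraries the most similar library of the same cell type by Spearman's rho was of the other genotype. Each library had at least as many candidates of the other genotype as of its own, so this count alone shows little. KO luminal 3 was closest to WT luminal 3 (rho = 0.995 across genes, which are not independent replicates). Genes of oxidative phosphorylation summed to 22136 CPM in KO basal 1 and 22547 CPM in KO luminal 1, against 10980 to 14691 CPM in the other 9 libraries. Ribosomal protein genes summed to 50595 CPM in KO luminal 1, against 19091 to 28172 CPM in the other luminal libraries. Gene lists whose median turned sign without KO basal 1 and KO luminal 1 are given with and without them, and the basal values without them rest on 1 KO library.

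**Figure D1:**
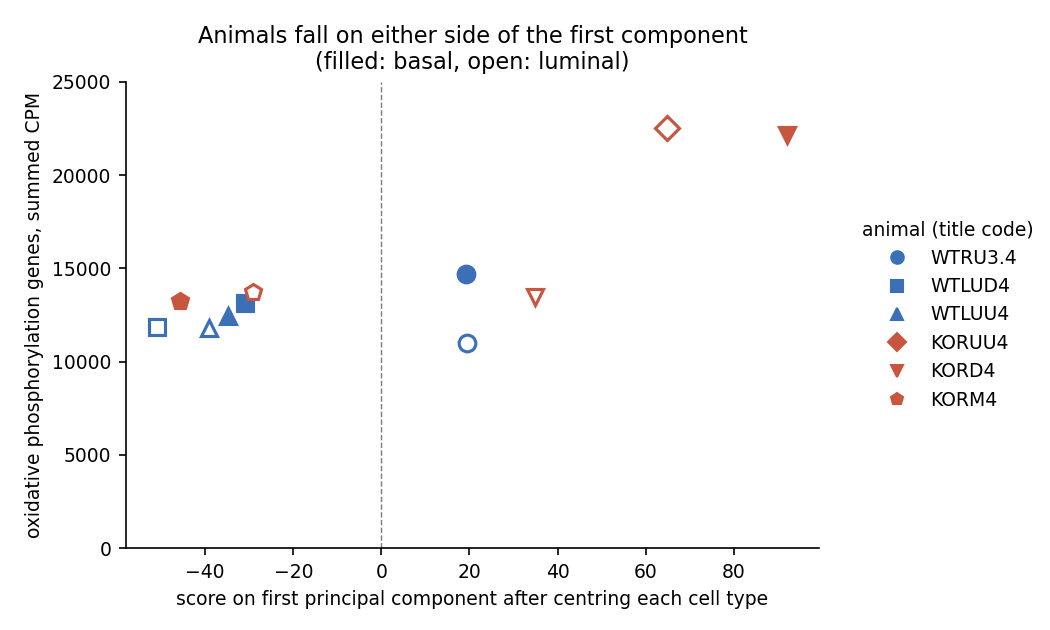
Score of each of the 11 libraries on the first principal component after centring on the cell type (x axis, no unit) against the summed CPM of oxidative phosphorylation genes (y axis), with 1 marker shape per animal, blue for WT and red for KO, filled for basal and open for luminal. KO luminal 1 (64.81) and KO basal 1 (92.22) lie farthest to the right with 22547 and 22136 CPM, and both libraries of 1 KO animal lie among those of 2 WT animals on the left.

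Cdkn1b itself was measured first. In WT basal cells its level was 42.1, 16.3 and 23.4 normalised CPM, and in KO basal cells 11.3 and 11.8. Every KO basal library lay below every WT basal library. In WT luminal cells it was 18.8, 15.7 and 14, and in KO luminal cells 17.4, 4.85 and 11.2. The library labelled KO luminal 1 lay inside the WT range, against its label. The log2 fold change was -1.24 (SE 0.54) in basal cells, -0.54 (SE 0.46) in luminal cells and -0.85 (SE 0.35) with cell type as a term, and none passed (Benjamini-Hochberg adjusted p = 1, 0.854 and 0.43, edgeR quasi-likelihood test). The luminal value was -0.99 without KO luminal 1 and -0.18 without KO luminal 2, and the basal value -0.78 without WT basal 1. A short deletion leaves the rest of a transcript to be counted, but the paper says that transcripts with premature stops are known to undergo nonsense-mediated decay. That was not tested here, and this level is only a partial check of the genotype and says nothing of the protein. At 9 weeks the fold change was -1.95 (SE 0.26, edgeR adjusted p = 0.00208) in luminal progenitors. It was -1.37 (SE 0.37) in mature luminal and -1.59 (SE 0.37) in basal cells, which did not pass. At 6 weeks it was -0.59 (SE 0.76) in basal and -0.67 (SE 0.83) in luminal cells, and neither passed.

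**Figure D2:**
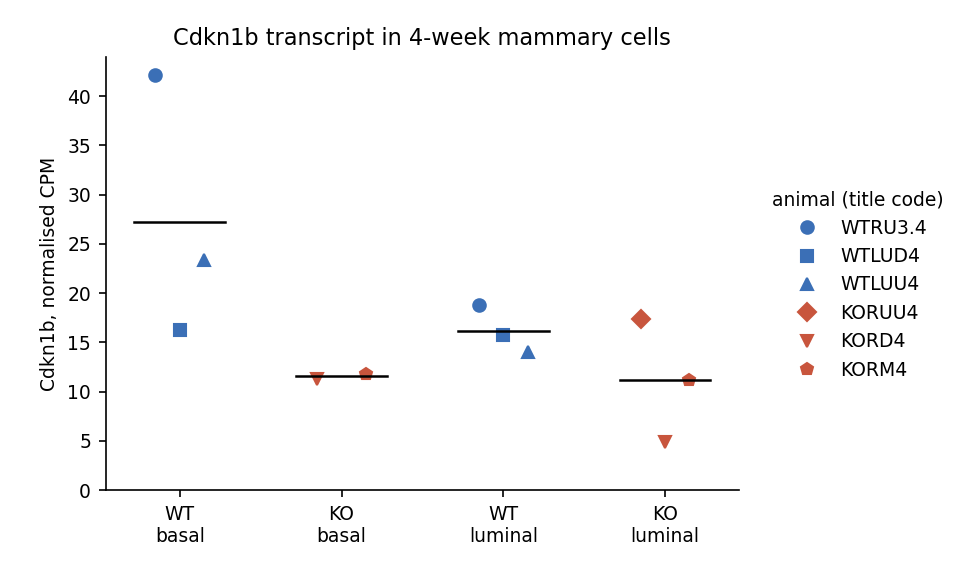
Cdkn1b in normalised CPM (y axis, from 0) in each library by cell type and genotype, with 1 marker shape per animal and a line at the group mean. The 2 KO basal libraries, at 11.3 and 11.8, lie below the 3 WT basal libraries, whereas the KO luminal libraries run from 4.85 to 17.4 and overlap WT.

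With cell type as a term, edgeR called 0 of 12082 genes (0%) at an adjusted p under 0.05. At an unadjusted p under 0.05 there were 1272 genes, 983 higher and 289 lower, and the lowest adjusted p was 0.418. In basal cells alone 0 genes (0%) were called and 310 passed unadjusted. In luminal cells 0 genes (0%) were called and 435 passed unadjusted. The test of whether the genotype effect differed between luminal and basal cells called 0 genes (0%), with 136 unadjusted. DESeq2's Wald test called 1 gene with cell type as a term, 1 in basal cells (Ndufa4l2, higher), 0 in luminal cells and 0 for the difference. DESeq2 on the basal libraries alone called 4 genes, among them Fam65b, Lyz2 and Ndufa4l2 as higher. The median log2 fold change of all genes was 0.02 in basal and -0.10 in luminal cells.

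The count depended on 1 KO animal. Without KO basal 2 and KO luminal 3, which came from the same rat, 2432 genes passed in the fit with cell type as a term, 1267 higher and 1165 lower. Leaving out any other animal gave 0. The 3 KO libraries that then remain are those with the highest scores on the first component, so the genotype and this component cannot be told apart in that fit. As a description of single genes, KO libraries lay wholly above WT libraries for 493 genes (4.08%) in basal cells and 689 (5.7%) in luminal cells, and wholly below for 606 (5.02%) and 768 (6.36%). In both cell types at once 43 genes (0.356%) lay above and 86 (0.712%) below.

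G2/M genes made up 4 of those 43 (49 G2/M genes were tested). Ccnb1, cyclin B1, which drives entry into mitosis with Cdk1, was at 13.8, 19.0 and 17.5 CPM in WT basal and 35.5 and 24.5 in KO basal cells. In luminal cells it was at 10.5, 10.1 and 14.6 in WT and 22.0, 23.3 and 18.3 in KO. The groups did not overlap in either cell type, and the log2 fold change was 0.84 (SE 0.35) in basal and 0.85 (SE 0.32) in luminal cells. With cell type as a term it was 0.85 (SE 0.22, edgeR adjusted p = 0.418), between 0.73 and 1.00 when single libraries or animals were left out.

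Ccnb2, cyclin B2, was at 5.67, 7.30 and 5.04 CPM in WT basal, 16.2 and 8.46 in KO basal, 5.74, 5.66 and 6.18 in WT luminal, and 11.1, 8.34 and 8.31 in KO luminal cells. Cenpa, the histone H3 variant that marks centromeres, was at 2.70, 5.55 and 3.15, then 9.25 and 5.80 in basal cells, and at 3.46, 3.63 and 3.62, then 11.5, 6.26 and 6.00 in luminal cells, WT first. For Cenpa the lowest KO basal and the highest WT basal library nearly met. Cdca3, part of the ubiquitin machinery that lets cells enter mitosis, was at 8.27, 9.77 and 7.30, then 27.2 and 9.93 in basal cells, and at 8.53, 10.8 and 18.2, then 28.5, 21.2 and 21.4 in luminal cells. KO basal 2 thus lay just above WT for Cdca3 and Cenpa, and the largest values of all 3 genes were in KO basal 1 or KO luminal 1. Their log2 fold changes with cell type as a term were 0.83 (SE 0.26) for Ccnb2, 1.07 (SE 0.31) for Cenpa and 1.01 (SE 0.30) for Cdca3, and none passed (adjusted p = 0.418 for each, edgeR). With single libraries left out they ran from 0.60 to 0.93, 0.90 to 1.23 and 0.70 to 1.21, and without KO basal 1 the basal value of Cdca3 dropped from 1.13 to 0.24.

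Promoters of these 4 genes are shown because cell cycle genes of late phases share 2 short elements, the CHR, whose core is TTTGAA, and the CCAAT box, the site of NF-Y. Each sequence is the 250 bases before the start of the gene in RefSeq (GRCr8, which is not the build of the counts), 5' to 3' on the strand of the gene, with every TTTGAA and CCAAT on either strand (the latter as ATTGG) in capitals. Ccnb1 lies at chr2:33655226-33655475 (minus strand), Ccnb2 at chr8:79981659-79981908 (minus), Cenpa at chr6:31431553-31431802 (minus) and Cdca3 at chr4:159320953-159321202 (plus).
Ccnb1: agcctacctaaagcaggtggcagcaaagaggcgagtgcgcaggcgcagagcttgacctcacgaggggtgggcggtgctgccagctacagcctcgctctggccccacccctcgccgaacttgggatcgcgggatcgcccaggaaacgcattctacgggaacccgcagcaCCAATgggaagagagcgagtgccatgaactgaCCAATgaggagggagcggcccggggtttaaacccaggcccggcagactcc
Ccnb2: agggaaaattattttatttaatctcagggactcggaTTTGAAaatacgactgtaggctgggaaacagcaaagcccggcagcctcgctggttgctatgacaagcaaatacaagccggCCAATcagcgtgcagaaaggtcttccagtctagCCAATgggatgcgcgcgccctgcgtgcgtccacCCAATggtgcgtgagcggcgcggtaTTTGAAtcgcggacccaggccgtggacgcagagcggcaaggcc
Cenpa: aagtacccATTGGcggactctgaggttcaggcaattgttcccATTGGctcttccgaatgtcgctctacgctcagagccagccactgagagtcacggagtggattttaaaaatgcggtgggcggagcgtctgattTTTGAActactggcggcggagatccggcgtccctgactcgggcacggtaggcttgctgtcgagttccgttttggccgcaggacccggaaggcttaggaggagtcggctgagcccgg
Cdca3: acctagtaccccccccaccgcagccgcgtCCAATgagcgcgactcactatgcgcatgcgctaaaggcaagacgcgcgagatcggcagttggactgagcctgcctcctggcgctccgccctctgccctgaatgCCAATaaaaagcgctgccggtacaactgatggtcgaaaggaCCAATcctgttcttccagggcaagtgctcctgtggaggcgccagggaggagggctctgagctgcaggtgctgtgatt

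TTTGAA occurred in 2 of these windows, those of Ccnb2 (2 copies) and Cenpa (1 copy). CCAAT occurred in all 4, with 3 copies in Ccnb2 and Cdca3 and 2 in Ccnb1 and Cenpa. Of the 44 tested G2/M genes with a window in the table, 52.3% held TTTGAA and 72.7% held CCAAT. Over the 9214 tested genes with a window the shares were 9.98% and 35.1%, and over all 27457 windows 16% and 34.3%. S phase genes held TTTGAA in 13.8% and CCAAT in 62.1% of 29 windows. These matches describe letters in a window and no binding was measured here.

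Over the whole G2/M list, 37 of 49 genes were higher in KO basal and 39 of 49 in KO luminal cells, beside 51.6% and 42.3% of all genes. In either cell type 0 passed the test (edgeR, with 5 and 7 at an unadjusted p under 0.05). The median log2 fold change was 0.36 in basal and 0.41 in luminal cells, beside 0.02 and -0.10 for all genes. KO libraries lay wholly above WT for 7 genes in basal and 13 in luminal cells, and wholly below for 1 in each, where 4.08% and 5.7% of all genes lay above and 5.02% and 6.36% below. Without KO basal 1 and KO luminal 1, 33 and 42 of 49 were higher, with medians of 0.21 and 0.35.

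The usual proliferation markers differed less. Mki67, the Ki67 antigen of cycling cells, was at 10.1, 20.1 and 17.2 CPM in WT basal, 11.8 and 24.7 in KO basal, 3.93, 12.2 and 16 in WT luminal, and 15.1, 6.06 and 19.7 in KO luminal cells. The genotypes overlapped in both cell types (log2 fold change 0.21, SE 0.62, and 0.35, SE 0.56). Top2a, the topoisomerase that untangles replicated DNA, and Ccna2, cyclin A2, overlapped too, at 0.42 (SE 0.67) and 0.36 (SE 0.42) in basal and 0.32 (SE 0.61) and 0.06 (SE 0.39) in luminal cells. Cdk1, the mitotic kinase, was at 6.05, 11.6 and 15.2 CPM in WT luminal and 24.1, 16.4 and 18.4 in KO luminal cells, which did not overlap, and at a log2 fold change of 0.84 (SE 0.43) did not pass. Cks2, a small subunit of these kinases, was at 83.9, 66.8 and 75.6 CPM in WT luminal and 395, 95.4 and 97.8 in KO luminal cells, where KO luminal 1 stood far above the others (1.38, and 0.39 without it).

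Upstream of mitosis the lists of the p27 pathway had medians nearer to those of all genes (0.02 in basal and -0.10 in luminal cells). In the S phase list, 22 of 38 genes were higher in KO basal cells (median 0.02) and 24 of 38 in KO luminal cells (median 0.09). KO libraries lay wholly above WT for 2 of them in basal and 7 in luminal cells, and wholly below for 0 in each. Of all genes, 4.08% and 5.7% lay above and 5.02% and 6.36% below. Without KO basal 1 and KO luminal 1, 21 and 28 of 38 S phase genes were higher (medians 0.06 and 0.24). Mcm2, of the replicative helicase, had log2 fold changes of -0.03 (SE 0.62) and -0.15 (SE 0.55). Pcna, the sliding clamp of DNA polymerase, was at 325, 269 and 275 CPM in WT luminal and 683, 379 and 329 in KO luminal cells, without overlap (0.68, SE 0.38, and 0.32 without KO luminal 1). Of 12 G1 cyclins and kinases, 6 were higher in basal (median 0.05) and 7 in luminal cells (median 0.11), and 1 and 7 without KO basal 1 and KO luminal 1 (medians -0.20 and 0.12). Ccnd1, cyclin D1, had -0.03 (SE 0.55) and -0.15 (SE 0.49), and Ccne1, cyclin E1, a main partner of the kinase that p27 inhibits, -0.01 (SE 0.32) and -0.23 (SE 0.29). Skp2, the ubiquitin ligase subunit that targets p27 for degradation, was at 5.76, 6.99 and 10.2 CPM in WT basal and 1.63 and 4.08 in KO basal cells, without overlap (-1.41, SE 0.54, and -0.91 without KO basal 1), and at -0.20 (SE 0.46) in luminal cells. Of 10 E2F and retinoblastoma genes, 3 were higher in basal (median -0.14) and 4 in luminal cells (median -0.03), E2f1 having 0.22 (SE 0.79) and 0.12 (SE 0.70). None of the genes in these 3 lists passed (edgeR, 0 called, with at most 2 of a list at an unadjusted p under 0.05 in a cell type).

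The other inhibitors of these kinases did not separate the genotypes. Cdkn1a (p21) was at 56.5, 30.2 and 67.5 CPM in WT basal, 75.4 and 56.9 in KO basal, 61.2, 43.0 and 49.6 in WT luminal, and 124, 57.6 and 58.1 in KO luminal cells, and the genotypes overlapped in both. Cdkn1c (p57), expressed mainly in basal cells, was at 221, 250 and 230 CPM in WT and 354 and 220 in KO basal cells (0.30, SE 0.41). Cdkn2c (p18) and Cdkn2b (p15), inhibitors of the cyclin D kinases, had 0.65 (SE 0.48) and 1.27 (SE 1.16) in basal cells and 0.11 (SE 0.44) and -0.09 (SE 0.97) in luminal cells. With Cdkn1b, 4 of these 5 inhibitors were higher in KO basal and 3 in KO luminal cells, and 0 passed. Without KO basal 1 and KO luminal 1 that was 2 of 5 in each (medians -0.01 and -0.26, from 0.36 and 0.07).

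**Figure D3:**
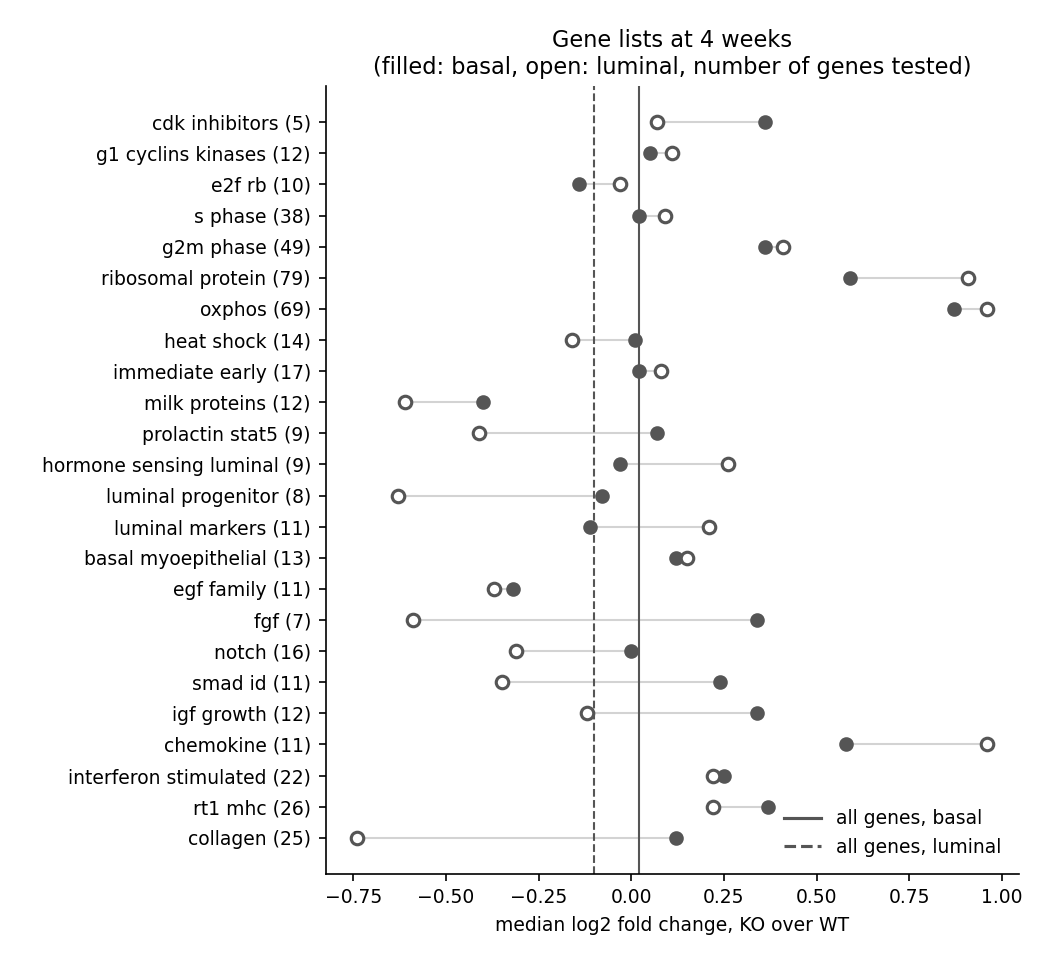
Median log2 fold change (KO over WT, x axis) of 24 gene lists in basal (filled) and luminal cells (open), with the number of genes tested in parentheses, and lines at the median of all genes in basal (0.02, solid) and luminal cells (-0.10, dashed). Ribosomal protein, oxidative phosphorylation and chemokine genes lie farthest to the right of these lists (0.58 to 0.96), and G2/M genes lie at 0.36 and 0.41.

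Lower in KO without overlap in both cell types were, among the single genes with the lowest p, Cat, Zbtb20, Fam227a and Nprl3. Cat, catalase, which breaks down hydrogen peroxide, was at 256, 280 and 269 CPM in WT basal, 148 and 181 in KO basal, 369, 318 and 204 in WT luminal, and 154, 191 and 185 in KO luminal cells. Zbtb20, a transcriptional repressor, was at 136, 210 and 245, then 69.5 and 135 in basal cells, and at 88, 76.8 and 81.4, then 38.4, 49.2 and 50.2 in luminal cells, WT first. For Zbtb20 the basal groups all but touched at 136 and 135, whereas the luminal groups were well apart. Fold changes with cell type as a term were -0.73 (SE 0.20) for Cat and -0.88 (SE 0.23) for Zbtb20. Fam227a, at -1.88 (SE 0.44), and Nprl3, a subunit of the GATOR1 complex that restrains mTORC1, at -0.83 (SE 0.23), followed, Fam227a reaching at most 6.97 CPM in basal and 21.6 CPM in luminal cells.

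Higher in KO without overlap in both cell types were Dcxr, Ifitm1, Tst and Knstrn. Dcxr, a reductase of xylulose and dicarbonyls, was at 7.81, 5.96 and 4.41 CPM in WT basal, 25.5 and 8.86 in KO basal, 11.8, 11.9 and 15.8 in WT luminal, and 44.6, 28.3 and 18.9 in KO luminal cells. KO basal 2 and KO luminal 3, of the same animal, were the lowest KO libraries. Ifitm1, an interferon-induced membrane protein, was at 70.2, 42.5 and 41.4, then 176 and 70.6 in basal cells, and at 61.2, 46.8 and 63.4, then 138, 90.7 and 81.2 in luminal cells. Fold changes with cell type as a term were 1.34 (SE 0.32) for Dcxr, 1.04 (SE 0.27) for Ifitm1, 0.78 (SE 0.24) for Tst, a mitochondrial sulfurtransferase, and 0.81 (SE 0.24) for Knstrn, a protein of the kinetochore and spindle. Adjusted p was 0.418 for all 8 genes of these groups in edgeR. All 8, and Ccnb1 too, passed when the KO animal of KO basal 2 and KO luminal 3 was left out (edgeR adjusted p from 0.00932 to 0.0439). They were among 2432 genes that passed in that fit, where genotype and the first component cannot be told apart. These genes were chosen for a low p and no overlap in the same libraries, so their passing adds no support for them. LOC690326, picked out here after its values were seen, was at 0 in all WT basal libraries and at 0.962 and 0.443 CPM in KO basal cells, and at 0, 0 and 0.739 in WT luminal and 2.41, 6.37 and 1.27 in KO luminal cells. At 9 weeks its fold change in luminal progenitors was 10.19 (SE 1.06, edgeR adjusted p = 0.00115).

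**Figure D4:**
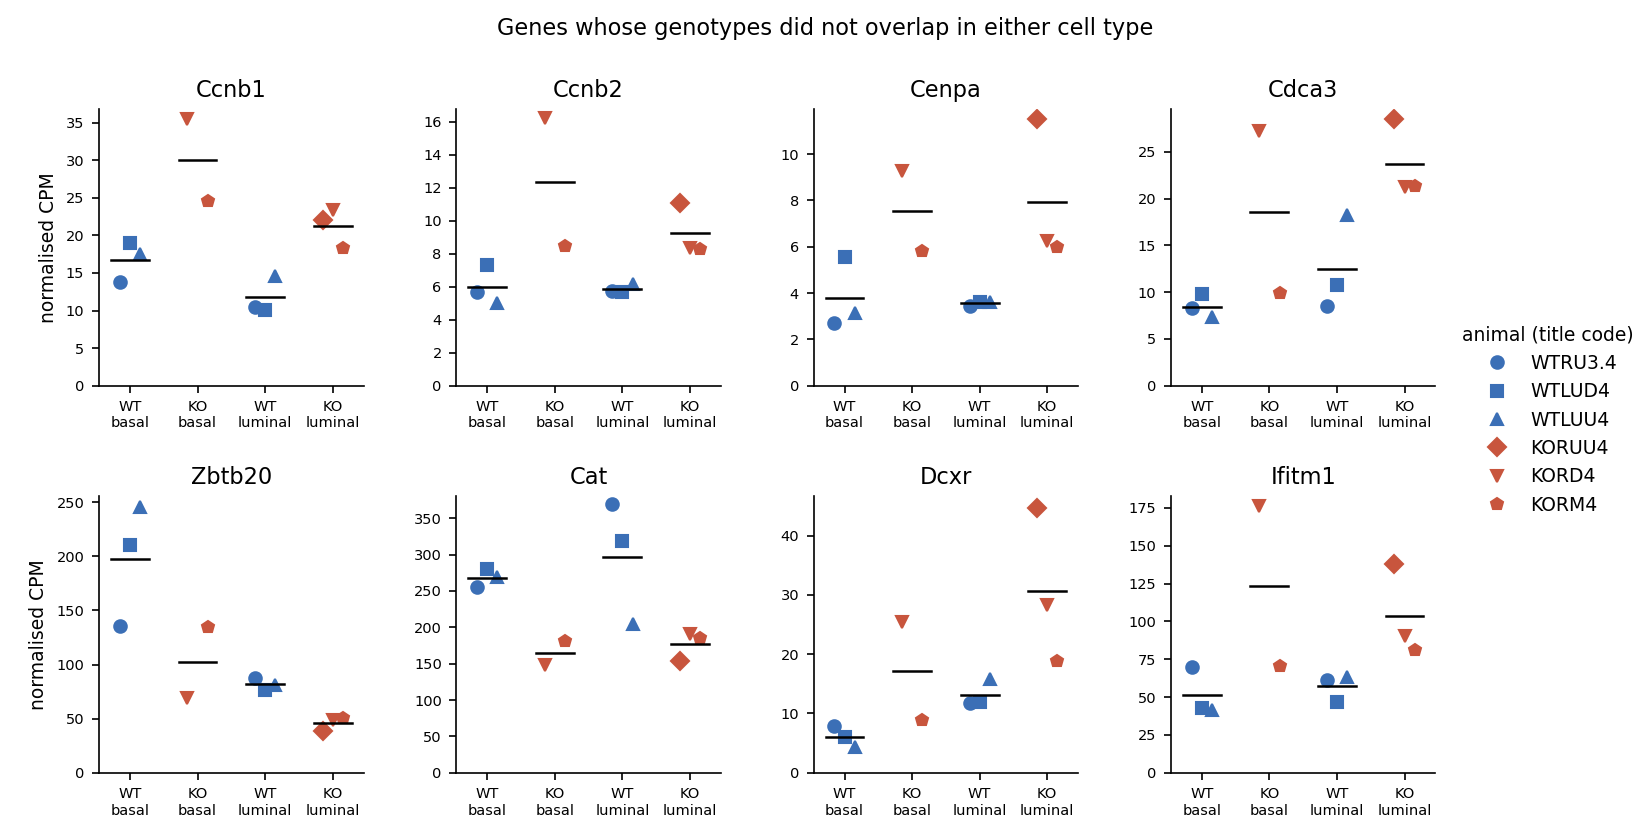
Normalised CPM (y axes from 0) of Ccnb1, Ccnb2, Cenpa, Cdca3, Zbtb20, Cat, Dcxr and Ifitm1 in each of the 11 libraries by cell type and genotype, with 1 marker shape per animal and a line at the group mean. KO points lie above WT points in both cell types for the 4 G2/M genes, Dcxr and Ifitm1 and below them for Zbtb20 and Cat, with the basal groups all but touching for Zbtb20 (136 and 135 CPM) and Ifitm1 (70.2 and 70.6 CPM).

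Basal cells alone gave few genes with more than a trace of signal in every KO library. C1s, a serine protease of complement, was at 96.5, 151 and 165 CPM in WT and 305 and 686 in KO basal cells (1.85, SE 0.42, between 1.15 without KO basal 2 and 2.32 without KO basal 1). Gprc5a, an orphan receptor induced by retinoic acid, was at 48.3, 62.3 and 51.8 in WT and 21.5 and 20.6 in KO (-1.36, SE 0.39). Both stood well apart from WT but did not pass (edgeR adjusted p = 1). Angpt1, a ligand of the Tie2 receptor, was at 3.77, 5.14 and 6.61, then 1.63 and 1.24 (-1.85, SE 0.44). Arhgef15, Msln, Ccdc64 and Spdef were also wholly apart, at 4.22 CPM or less in every basal library and mostly higher in luminal cells. Ndufa4l2, a mitochondrial protein of hypoxic cells, was at 56.6 CPM in KO basal 1, 1.2 in KO basal 2 and at most 0.418 in WT, and Kazald1, a secreted protein of the IGF-binding kind, at 49.8 and 6.82 against 3.81 to 5.40, so that the difference of each came mostly from KO basal 1. Fam65b was at 7.16, 5.71 and 6.46 CPM in WT and 108 and 30.3 in KO basal cells.

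Markers of other cells differed as well, though not all in the same direction. All 9 fibroblast markers tested were higher in KO basal cells (median 0.77), Dcn at 89.0, 222 and 239 CPM in WT and 1400 and 223 in KO. Its difference was mostly that of KO basal 1 (2.14, and 0.29 without it). The summed fibroblast markers ran the other way, at 8159 CPM in KO basal 2 and 2733 CPM in KO basal 1. The latter lay inside the WT basal range of 1296 to 6520 CPM. Of 11 myeloid markers 9 were higher (median 1.95), 4 of them without overlap (4.08% of all genes), among them Lyz2, lysozyme, at 0.0465, 0.514 and 0.21 CPM in WT and 1.63 and 13 in KO. Of 6 pericyte markers 5 were higher (median 1.2). Of 7 Schwann cell markers 6 were higher (median 0.54). All 6 skeletal muscle and all 4 epidermal markers were higher (medians 0.45 and 0.72), 6 of 12 endothelial, 3 of 5 adipocyte and 2 of 4 lymphoid markers. Of the endothelial markers 4 lay wholly below WT, as did 5.02% of all genes. They summed to 62 CPM in KO basal 1 and 221 CPM in KO basal 2, against 219 to 288 CPM in WT basal libraries. Without KO basal 1 and KO luminal 1 the medians were 0.75 for fibroblast, 0.43 for myeloid, 1.06 for pericyte and 0.56 for Schwann cell markers. For skeletal muscle (-0.12, 3 of 6 higher) and epidermal markers (-0.46, 0 of 4 higher) the sign then turned. No marker gene passed the test, and the part of such cells in the basal differences was not tested. In bulk samples fewer cells of a type and less RNA per cell cannot be told apart.

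In luminal cells, Il33, a cytokine of barrier epithelia, was at 240, 332 and 562 CPM in WT and 834, 696 and 776 in KO (1.02, SE 0.35). Gstm2, a glutathione transferase, was at 31.9, 29.3 and 46.3, then 105, 101 and 58.8 (1.30, SE 0.43). Nr4a2, an orphan nuclear receptor induced within minutes of a stimulus, was at 298, 199 and 137, then 90.1, 90.5 and 104 (-1.16, SE 0.36). KO lay apart from WT in each case, and KO luminal 3 was the KO library nearest WT for Gstm2 and Nr4a2. Rgs4, a brake on G protein signalling, was at 10.3, 18.1 and 23.0, then 24.5, 83.5 and 34.0 (1.46, SE 0.49, and 0.77 without KO luminal 2). Cxcl9 and Lrrc17 (higher) and Art4, Axl and Irx4 (lower) were at 3.23 CPM or less in every luminal library, and all 5 were higher in basal than in luminal cells. None passed (edgeR adjusted p = 0.854).

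Lrrc26, Syt12, Zmym3 and Nagpa were the only genes over a mean log2 CPM of 2 without overlap in both cell types and in opposite directions. That opposite pattern was the rule for choosing them and is not a finding about them. None passed the test of a difference between cell types (edgeR adjusted p = 1). Lrrc26, a subunit of potassium channels in secretory epithelia, was at 0 in both KO basal libraries and 0.103 to 0.472 CPM in WT basal, and at 14.1, 11.3 and 11.7 in WT luminal and 25.4, 18.3 and 15 in KO luminal cells. Zmym3, a zinc finger protein, was at 9.58, 11 and 13.8 CPM in WT basal and 15.3 and 18.4 in KO basal cells, and at 14.8, 17.6 and 16.5 in WT luminal and 13.5, 12.2 and 14.7 in KO luminal cells, so that it differed by -0.83 (SE 0.45) between the cell types. The corresponding differences were -1.66 (SE 0.78) for Syt12 and -1.37 (SE 0.81) for Nagpa.

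Ribosomal protein genes were higher in KO for 77 of 79 in basal (median 0.59) and 79 of 79 in luminal cells (median 0.91), and genes of oxidative phosphorylation for 66 of 69 (median 0.87) and 65 of 69 (median 0.96). In luminal cells 28 ribosomal and 35 oxidative phosphorylation genes lay wholly above WT, as did 5.7% of all genes. Ribosomal protein genes have many near-identical copies in the genome, so their counts are uncertain. Ndufa12, a subunit of complex I, was at 38.4, 37.1 and 37.4 CPM in WT basal, 126 and 36.2 in KO basal, 40.2, 35.9 and 44.9 in WT luminal, and 152, 91.3 and 53.4 in KO luminal cells. Its basal difference was that of KO basal 1 alone. Without KO basal 1 and KO luminal 1, 19 of 79 ribosomal genes were higher in basal (median -0.11) and 77 in luminal cells (median 0.27), and 9 of 69 genes of oxidative phosphorylation in basal (median -0.11) and 66 in luminal cells (median 0.41). In basal cells the direction of both lists was therefore set by 1 library.

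Milk genes, which respond to prolactin through Stat5, gave no gene that passed at this age (edgeR). Of 12 tested, 4 were higher and 8 lower in KO in each cell type (medians -0.40 in basal and -0.61 in luminal cells), while 57.1% of all genes were lower in luminal cells and 5839 of 12082 in basal cells. The basal median ran from -1.55 to 0 when single libraries were left out. Csn2, beta-casein, was at 33.3, 89.2 and 2.49 CPM in WT luminal and 22.9, 4.34 and 1.58 in KO luminal cells. Wap, whey acidic protein, was at 31.6, 57.9 and 26.4, then 80.2, 17.8 and 23.0. Lalba, alpha-lactalbumin, was at 3170, 4610 and 3380, then 15900, 5980 and 4220 (1.23, SE 0.50, and 0.50 without KO luminal 1), and only KO luminal 3 overlapped WT. Olah, which ends fatty acid chains at medium length for milk, was at 2130, 3160 and 1210, then 1290, 938 and 882 (-1.07, SE 0.47). At 9 weeks, in luminal progenitors, all 12 of these genes were higher in KO (median 1.03) and 2 passed. Of 9 genes of prolactin signalling, 6 were higher in basal (median 0.07) and 3 in luminal cells (median -0.41). Prlr, the prolactin receptor, was at 98.7, 173 and 158 CPM in WT luminal and 267, 152 and 158 in KO luminal cells, and Stat5a at 37.0, 103 and 58.9, then 29.1, 33.9 and 48.6, both with overlap.

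Receptors and targets of ovarian hormones showed no common direction. Of 9 genes of hormone-sensing luminal cells, 4 were higher in basal (median -0.03) and 5 in luminal cells (median 0.26), and without KO basal 1 and KO luminal 1 the medians were 0.17 and -0.36, with 5 and 3 genes higher. Esr1, the estrogen receptor, was at 5.43, 18.5 and 19.4 CPM in WT luminal and 8.72, 7.27 and 14.8 in KO luminal cells. Pgr, the progesterone receptor, was at 9.72, 46.2 and 29.9, then 17.5, 9.40 and 24.6, and Foxa1, the pioneer factor of the estrogen receptor, at 32.0, 61.5 and 63.0, then 17.5, 21.2 and 40.0. For all 3 receptors and factors the genotypes overlapped, and WT luminal 1 was the lowest WT library. Cited1, a coactivator in hormone-sensing cells, was at 300, 380 and 570, then 1510, 743 and 630, without overlap (1.21, SE 0.49, and 0.76 without KO luminal 1). Of 8 luminal progenitor genes 2 were higher in KO luminal cells (median -0.63). Kit, the stem cell factor receptor, was at 112, 353 and 176, then 20.9, 51.0 and 148, and Lbp, which binds lipopolysaccharide, at 2290, 1920 and 1430, then 1060, 1170 and 1410. Areg, the EGF receptor ligand that carries the estrogen signal in ducts, was at 402, 267 and 509, then 734, 485 and 495 (0.54, SE 0.36).

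Among signalling lists, chemokines were higher for 7 of 11 genes in basal (median 0.58) and 10 of 11 in luminal cells (median 0.96). Cxcl1, which draws neutrophils, was at 7280, 4950 and 6790 CPM in WT luminal and 25700, 14800 and 7680 in KO luminal cells, and Ccl2, which draws monocytes, at 14.5, 14.9 and 32.8, then 85.5, 38.0 and 37.8. Neither gene overlapped in luminal cells, and KO luminal 1 was highest for both. Without KO basal 1 and KO luminal 1 the chemokine medians were 0.01 and 0.53. EGF family genes were higher for 2 of 11 in both cell types (medians -0.32 and -0.37), Nrg1, neuregulin, being at 372, 573 and 808 CPM in WT basal and 358 and 318 in KO basal cells. Medians in basal and luminal cells were 0.00 and -0.31 for Notch genes, 0.24 and -0.35 for Smad and Id genes, 0.34 and -0.59 for FGF genes, 0.34 and -0.12 for IGF genes, 0.12 and -0.74 for collagens, 0.25 and 0.22 for interferon-stimulated genes, 0.37 and 0.22 for RT1 genes, 0.01 and -0.16 for heat shock genes and 0.02 and 0.08 for immediate early genes. Several of these turned on KO basal 1 and KO luminal 1. Without them the basal medians were -0.10 for interferon-stimulated genes (7 of 22 higher), -0.26 for RT1 genes (8 of 29 higher), -0.10 for Smad and Id genes, -0.27 for heat shock genes and -0.15 for immediate early genes, and the luminal medians were 0.23, 0.32, -0.26, -0.15 and -0.04. No gene of these lists passed in either cell type (edgeR).

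The same sort was done in rats labelled 6 weeks (3 WT and 2 KO basal, 2 WT and 2 KO luminal libraries). The titles of KO basal 1 and KO luminal 1 of 6 weeks carry a lower number than all other titles of that age. The 3 WT animals and the other KO animal share the same number. If that number is an age in weeks, the genotypes were not matched for age there. Its part in the counts below was not tested. In a fit of all 20 libraries the genotype effect differed between 6 and 4 weeks for 152 of 12572 genes (1.21%) in luminal and 5 (0.0398%) in basal cells. The basal genes were Akr1b8, Nqo1 and Osgin1, with a lower KO effect at 6 weeks, and Klhl36 and Plg, with a higher one. Akr1b8, an aldo-keto reductase, was at 1.05, 0.843 and 0.253 CPM in WT and 3.44 and 1.32 in KO basal cells at 4 weeks, and at 451, 220 and 332 in WT and 3.21 and 2.89 in KO at 6 weeks. WT at 6 weeks stood alone, and the other 3 groups were at 3.44 CPM or less. Nqo1, a quinone reductase and classical Nrf2 target, was at 37.0, 31.2 and 29.2, then 69.9 and 29.7 at 4 weeks, and at 1280, 2030 and 1450, then 75.2 and 28.6 at 6 weeks. The differences between the ages were -8.47 (SE 1.09) and -5.55 (SE 0.73), each with an edgeR adjusted p of 0.003, and passed in 18 and 19 of 20 fits that left out 1 library. In luminal cells they were -6.68 (SE 1.02, adjusted p = 0.0106) and -4.02 (SE 0.71, adjusted p = 0.0154). In this fit 0 genes passed at 4 weeks in either cell type (edgeR, with 136 luminal and 85 basal genes at an unadjusted p under 0.05), against 1103 in luminal and 217 in basal cells at 6 weeks. The luminal count of 152 ran from 1 (without WT luminal 1 of 6 weeks) to 2784 (without KO luminal 1 of 6 weeks), and Cdkn1b in KO luminal 2 (36.7 CPM) and WT basal 3 (3.48 CPM) of 6 weeks went against their labels. Markers of other cells differed at 6 weeks too. Fibroblast markers summed to 100 to 621 CPM in WT basal and 2489 and 3480 CPM in KO basal libraries, and Schwann cell markers to 92 to 340 and 2248 and 3383 CPM. In KO luminal 2 of 6 weeks the luminal markers summed to 8833 CPM, against 21624 to 29033 CPM in the other luminal libraries of that age, and fibroblast markers to 3250 CPM, against 27 to 126 CPM. Their part in these counts was not tested. Age and any difference in handling between the ages cannot be told apart here.

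**Figure D5:**
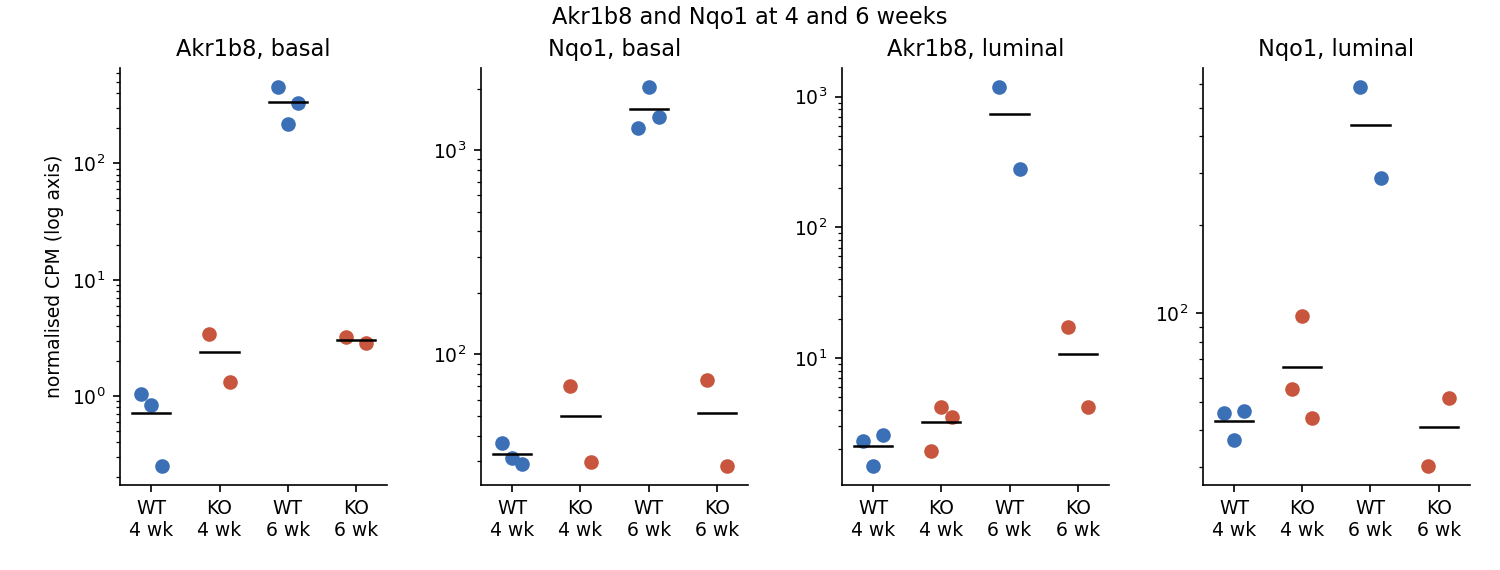
Akr1b8 and Nqo1 in normalised CPM (y axes, log scale) in basal and luminal libraries of WT (blue) and KO (red) at 4 and 6 weeks, 1 point per library, with a line at the group mean. WT libraries of 6 weeks stand above all others (Akr1b8 220 to 451 in basal and 282 to 1180 in luminal cells), and at 4 weeks both genotypes lie at 4.22 CPM or less for Akr1b8.

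Genes that differed after puberty were followed back to 4 weeks. At 9 weeks edgeR called 436 of 12809 genes (3.4%) in luminal progenitors, 17 (0.133%) in mature luminal cells and 7 (0.0546%) in basal cells. That fit of 16 libraries joined the Cd49b+ and PNA+ sorts as replicates of luminal progenitors. Luminal progenitors thus had more libraries than mature luminal or basal cells, and these counts cannot be compared between cell types. Of the 271 genes higher in KO luminal progenitors, 252 were tested in the luminal cells of 4 weeks, and 105 of them (41.7%) were higher there, as were 42.3% of all genes. Their median was -0.10, the same as for all genes, and 10 of them (3.97%) lay wholly above WT, below the 5.7% of all genes. Of the 165 lower genes, 159 were tested and 107 (67.3%) were lower at 4 weeks, beside 57.1% of all genes, with a median of -0.24, and 13 (8.18%) lay wholly below WT, beside 6.36%. Wap belongs to the other direction, as all 12 milk genes were higher in KO luminal progenitors at 9 weeks. Its luminal fold change at 4 weeks was 0.06 (SE 0.60). Of the 4 G2/M genes above, Cenpa (2.41, SE 0.40) and Cdca3 (2.5, SE 0.57) passed in luminal progenitors of 9 weeks (edgeR adjusted p = 0.00769 and 0.0302), and Ccnb1 (1.66, SE 0.50) and Ccnb2 (1.42, SE 0.53) did not.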

How the data were processed

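Reads were single-end, from low-input SMARTer libraries of sorted cells. According to the submitters' processing notes and the study's methods, the authors aligned them to rn6 with STAR 2.5.1b and deposited htseq-count counts per refGene gene, not normalized. Whether counting used strand is not stated, so the counts of overlapping genes are less certain. Tallies without a gene (49.7% to 62% of reads, mostly multi-mapping) were left out, which limits genes with close copies.

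Counts were analysed in R 4.3.3 with edgeR 4.0.16 (TMM, filterByExpr, quasi-likelihood test, Benjamini-Hochberg, threshold 0.05). Cell types were compared in 1 fit of 4 groups, and the joint fit had genotype and cell type as terms. limma 3.58.1, DESeq2 1.42.0 and sva 3.50.0 served the alternatives, and Python 3.11.15 the figures. The test was tried on simulated data. None of 10 replicate pairs was identical. Both libraries of an animal deviated together (residual r from 0.11 to 0.62 over 5 animals, paired by title), and the joint fit treats them as separate, so its p-values cover the spread between these libraries. Named genes are Cdkn1b, up to 5 per direction with the lowest p among non-overlapping genes over a mean log2 CPM of 2, members of the milk, hormone, prolactin and inhibitor lists, and up to 3 of each other list. Genes outside it are said to be chosen afterwards or named in a count. Some single genes are left out of the text. Genes and lists were chosen with earlier results of these data known. Alternatives added after seeing the data were leaving out whole animals, leaving out KO basal 1 and KO luminal 1, leaving out libraries for genes chosen by list, 1 surrogate variable, and leaving out the 6-week library with the fewest genes.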

Additional observations from a re-analysis of the deposited data

Results flagged for a closer look

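The KO minus WT difference was tested for a change between 6 and 4 weeks by an interaction contrast in edgeR, and 152 luminal genes (124 higher, 28 lower) and 5 basal genes (2 higher, 3 lower) passed. Emcn, an endothelial gene, was among the luminal genes and was listed at 0 in both WT luminal libraries of 6 weeks, at 22.2 and 1170 CPM in the KO libraries, and at 1.16 to 5.40 CPM in all luminal libraries of 4 weeks. Endothelial markers summed to 63 and 93 CPM in WT and 451 and 1872 CPM in KO luminal libraries of 6 weeks, and their part in the 152 genes was not tested.

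The luminal count fell outside 1.5 times its value when single libraries were left out. Of the 4-week libraries, leaving out WT basal 2 or WT basal 3 gave 89, WT luminal 2 gave 74, WT luminal 3 gave 72, KO luminal 1 gave 64, KO luminal 2 gave 83 and KO luminal 3 gave 80. Of the 6-week libraries, WT luminal 1 gave 1, WT luminal 2 gave 300, WT basal 3 gave 364, KO basal 1 gave 92, KO basal 2 gave 91, KO luminal 1 gave 2784 and KO luminal 2 gave 48. The basal count of 5 became 2 without WT basal 1, WT basal 3 or KO basal 1 of 4 weeks, 3 without WT basal 2, WT luminal 2, WT luminal 3 or KO luminal 3, and 9 without KO basal 2. Of the 6-week libraries, it became 0 without KO basal 2, 1 without KO basal 1, 10 without WT basal 1, 11 without KO luminal 1, 14 without KO luminal 2 and 31 without WT basal 2. Nqo1 and Akr1b8 passed in 19 and 18 of those 20 basal fits, Plg in 14, Klhl36 in 10 and Osgin1 in 5.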

How the results depend on the processing

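The counts of 0 at 4 weeks held in edgeR under RLE, both other filters, a fold threshold, the compared libraries alone, 1 surrogate variable, and without KO basal 1 and KO luminal 1, and with cell type as a term also in limma on means per animal. Counts ran from 0 to 0 over the libraries left out for basal cells, luminal cells and their difference, and from 0 to 2432 with cell type as a term, the highest without the KO animal of KO basal 2 and KO luminal 3. DESeq2 called 1 gene in basal cells and 1 with cell type as a term, and 4 on the basal libraries alone. With the animal as a fixed replicate block the difference between cell types had 1 call (Lyz2), and with the animal as a limma-voom block (correlation 0.45) the joint comparison had 0. For 6 against 4 weeks, DESeq2 called 964 luminal and 194 basal genes, at least 10 counts in every library left 2 basal calls, and leaving out single libraries gave 1 to 2784 luminal and 0 to 31 basal calls. Without the 6-week KO luminal library with the fewest genes detected 48 luminal genes passed. None of 34 values of genes with the lowest p changed direction where these alternatives could be fitted. These genes were chosen for groups that did not overlap, so a change of direction was unlikely from the start and its absence shows little. Among 183 genes chosen by list, the sign changed in some fit without 1 library for 107 in basal and 51 in luminal cells. In the first set 13 values passed under one where they did not in the main comparison, 10 of them without that KO animal. The cause of these shifts was not tested. Depth limits genes with few counts, and 2 or 3 libraries per group limit the rest.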
